A study of Saccharomyces cerevisiae with 10 samples.

Results

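The maltose and galactose use genes of budding yeast (Saccharomyces cerevisiae) were followed after loss of SUA5. On the arrays 5449 genes were measured. 10 genes were chosen by name: MAL11, MAL13, MAL31 and MAL33 for maltose, and GAL1, GAL3, GAL4, GAL7, GAL10 and GAL80 for galactose. 9 of the 10 had a probe set (a group of array probes read as 1 value), each gene with 1, and no probe set was paired with GAL4, which is not analysed here. All 9 read above the background limit on all 10 arrays, so no member was removed for low signal.

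RNA from 10 cultures was hybridised to 1 Affymetrix yeast array each. The wild type was the haploid BY4742 (3 cultures), whose mating type is alpha. The sua5D strains lack SUA5, which encodes an enzyme needed for the tRNA base threonylcarbamoyladenosine. They came from dissected spores of the diploid BY4743, of mating type a in the labels, and cultures were taken after restreaking number 1 (sua5D 1st, 35 generations after sporulation, 4 cultures) and number 12 (sua5D 12th, 300 generations, 3 cultures). All cultures grew in the rich glucose medium YPD to mid-log phase. The labels name neither the marker used for the deletion nor the age of the wild-type cultures, and they call the cultures of a group independent clones without saying how many spores they came from.

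In yeast the sugar a cell is given decides which of these genes it uses. Galactose is taken up by Gal2 and enters glycolysis through Gal1, Gal7 and Gal10. Their transcription is driven by Gal4, which Gal80 holds inactive until Gal3 senses galactose. Maltose is imported by permeases such as Mal31 and Mal11 and split by maltases such as Mal32, under activators of the Mal13 and Mal33 type. Glucose shuts both systems down, largely through the repressor Mig1, which the Snf1 kinase inactivates. Strains of the S288C family, to which the BY strains belong, are known to carry defective MAL activator alleles.

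SUA5 read 506, 522 and 532 in the wild type and 5.22 or less on all 7 deletion arrays. The mating markers split the same way. The summed intensity of 7 a-specific genes was 269.7 to 326 in the wild type and 6153 to 7605 at the 1st, and that of 5 alpha-specific genes was 19090 to 19997 and 1068 to 1306. Each comparison with the wild type therefore also compares mating type a with alpha, and these cannot be told apart. Fewer cells with a transcript and less of it per cell also cannot be told apart in such bulk samples. Within the 1st group, replicates 1 and 2 lacked the auxotrophic marker transcripts LYS2 and MET17 (15.6 or less) and replicates 3 and 4 had them (2890 or more). At the 12th both read 96.9 or less, and the wild type had MET17 (4176 or more) but not LYS2 (17.4 or less). No deletion culture thus had the marker transcripts of the wild type. This difference too cannot be told apart from the loss of SUA5. The array medians of the tested genes were 602 to 613 in the wild type and 649 to 666 in the deletion.

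Most measured members of both sugar systems were higher in cells without SUA5, although the only medium the labels name is YPD, whose sugar is glucose. 8 of the 9 measured members rose at the 1st and the same 8 at the 12th, and none fell. GAL10 did not pass at either time, and the call of GAL3 was lost after quantile normalization. The galactose permease gene GAL2, which is not a member, fell at both times. The rise was largest for the maltose permease MAL31, 5.46-fold at the 1st, and smallest for the repressor GAL80, 1.5-fold. Fold changes are on the scale of log2(intensity + 16), which understates changes of dim genes. A change is called where the adjusted p of limma is under 0.05. Of all genes tested, 41.5% were called higher at the 1st and 40.9% at the 12th, so a rise alone was common in these cells. With falls included, 79% of all genes were called at the 1st and 77.8% at the 12th. For the same 8 members all deletion arrays lay above all wild-type arrays at both times. Of all genes, 40.4% separated upward and 36.3% downward at the 1st, and 41.9% and 37.8% at the 12th. The median log2 change of the 9 members was 1.31 at both times, against 0.03 for all genes. Both comparisons share the 3 wild-type arrays.

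**Figure D1:**
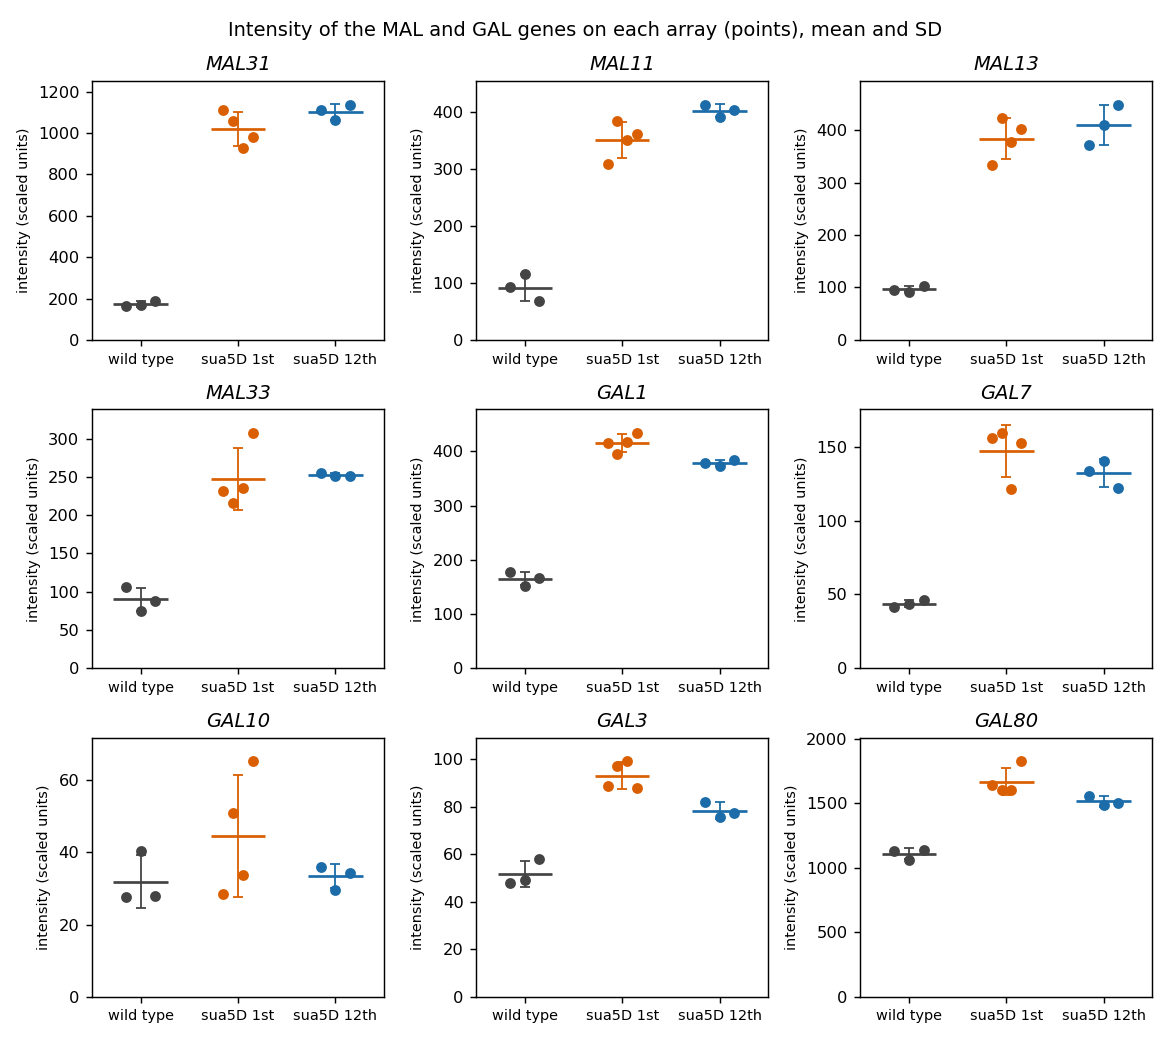
Intensity of each measured MAL and GAL gene (vertical axes, scaled units, each from 0) by group, with 1 point per array, the group mean as a line and the SD as a bar. The deletion arrays lie above all wild-type arrays in every panel except that of GAL10.

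Both permease genes among the members rose. MAL31 (YBR298C), the maltose permease, read 164, 170 and 187 in the wild type. It read 1111, 1058, 927 and 983 at the 1st and 1111, 1061 and 1138 at the 12th. All 7 deletion arrays thus lay above the highest wild-type array. The log2 change was 2.45 at the 1st (95% confidence interval 2.30 to 2.59, adjusted p = 8.42e-13) and 2.56 at the 12th (2.41 to 2.72, adjusted p = 1.29e-12). Among the 5449 genes this was the rise of rank 80 at the 1st and 70 at the 12th.

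MAL11 (YGR289C), a transporter of maltose and other alpha-glucosides, read 92.5, 115 and 68.4 in the wild type. It read 308, 384, 351 and 361 at the 1st and 413, 391 and 402 at the 12th. The groups did not overlap, and each 12th array also lay above each 1st array. It was 3.45-fold higher at the 1st (adjusted p = 6.13e-09) and 3.94-fold at the 12th (adjusted p = 5.32e-09) by limma.

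Both measured genes of the MAL activator family rose as well. MAL13 (YGR288W), next to MAL11, read 95.7, 91.5 and 103 in the wild type, 333, 424, 377 and 403 at the 1st, and 372, 410.2 and 449 at the 12th. This was 3.54-fold higher at the 1st (log2 interval 1.64 to 2.01, adjusted p = 2.11e-10) and 3.78-fold at the 12th (adjusted p = 3.28e-10). MAL33 (YBR297W), next to MAL31, read 106, 75.4 and 88.3 in the wild type. At the 1st it read 231, 216, 235 and 307, and at the 12th 255, 251 and 251. All deletion arrays were above the wild type, and replicate 4 of the 1st was the highest. The rises were 2.48-fold (adjusted p = 1.12e-07) and 2.55-fold (adjusted p = 1.92e-07).

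Of the 3 enzyme genes that turn galactose into glucose phosphate, 2 rose. GAL1 (YBR020W), galactokinase, read 177, 153 and 166 in the wild type, 416, 395, 417 and 434 at the 1st, and 379, 373 and 385 at the 12th. It was 2.38-fold higher at the 1st (log2 interval 1.12 to 1.38, adjusted p = 3.01e-10) and 2.18-fold at the 12th (adjusted p = 2.09e-09), with no overlap. GAL7 (YBR018C), galactose-1-phosphate uridylyltransferase, read 41.3, 43.6 and 46.1 in the wild type. It read 156, 159, 121 and 152 at the 1st and 134, 141 and 122 at the 12th, again without overlap with the wild type. It was 2.72-fold higher at the 1st (adjusted p = 6.07e-09) and 2.48-fold at the 12th (adjusted p = 4.06e-08).

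GAL10 (YBR019C), the epimerase and mutarotase gene between them, was the member that was not called. The background limit of the arrays was 10.8 to 17.5. It read 27.5, 40.3 and 27.8 in the wild type, 28.4, 50.8, 33.7 and 65.2 at the 1st, and 36.04, 29.6 and 34.4 at the 12th. The groups overlapped, and replicates 2 and 4 of the 1st were the highest. The log2 change was 0.31 at the 1st (interval -0.08 to 0.70, adjusted p = 0.134) and 0.05 at the 12th (interval -0.37 to 0.47, adjusted p = 0.813). Without replicate 1 of the 1st it passed (log2 change 0.44, adjusted p = 0.0289). These intervals lie below those of GAL1 and GAL7. The gene table lists an antisense RNA, YNCB0008W, between GAL10 and GAL1, which was not measured.

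The sensor and the repressor of the galactose switch rose less. GAL3 (YDR009W), the galactose sensor and a relative of GAL1, read 48.0, 49.0 and 58.3 in the wild type, 88.7, 97.2, 99.2 and 87.8 at the 1st, and 82.3, 75.7 and 77.5 at the 12th. It was 1.61-fold higher at the 1st (adjusted p = 5.00e-06) and 1.4-fold at the 12th (adjusted p = 0.00029) on the deposited scale. After quantile normalization, which gives all arrays the same distribution, its log2 change was 0.04 at the 1st and -0.02 at the 12th (adjusted p = 0.671 and 0.875). With array medians set equal GAL3 kept its call (log2 change 0.60 and 0.39, adjusted p = 2.03e-05 and 0.00157). The call of GAL3 was thus lost under quantile normalization but not under equal medians. GAL80 (YML051W), which blocks Gal4, read 1132, 1059.5 and 1138 in the wild type, 1645, 1604, 1600.1 and 1825 at the 1st, and 1559.7, 1484 and 1500.2 at the 12th. It was 1.5-fold higher at the 1st (log2 interval 0.47 to 0.69, adjusted p = 1.46e-07) and 1.36-fold at the 12th (adjusted p = 5.05e-06). It kept its call and direction after quantile normalization (log2 change 0.59 and 0.43).

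**Figure D2:**
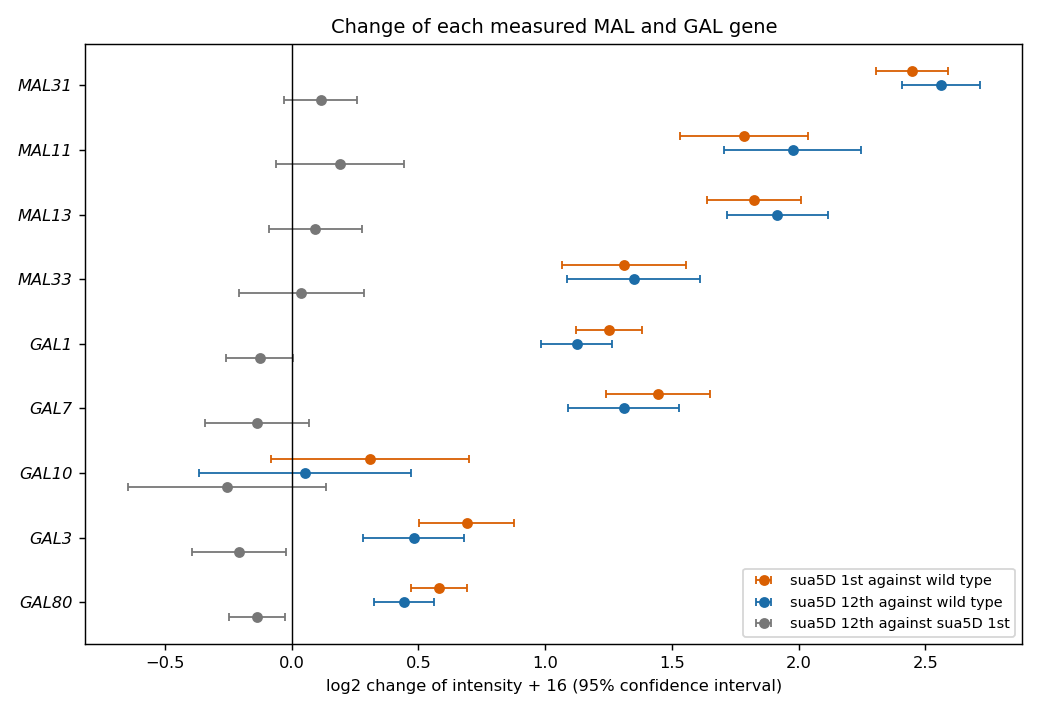
Log2 change of intensity + 16 (horizontal axis) of each measured member in the 3 comparisons, with 95% confidence intervals from limma. Against the wild type the intervals of 8 genes lie above 0 and those of GAL10 span it.

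Tested genes of low signal tended to read higher on the deletion arrays. The tested genes were put into 10 bins of near equal size by mean intensity over all arrays. In the lowest bin (up to 169), which holds GAL3, GAL7 and GAL10, the median log2 change at the 1st was 0.27. In the highest bin it was -0.20. After quantile normalization it was -0.16 in the lowest bin. The share of genes called higher at the 1st was 47.7% in the lowest bin and 24.8% in the highest. It was 53.0% in the bin of MAL11 and MAL33 and 50.5% in that of MAL13 and GAL1. At the 12th these shares were 38.7%, 22.8%, 52.5% and 51.4%. This binning was chosen after the values were seen. The probe sets for Schizosaccharomyces pombe on the same arrays, which find no target here, had a median log2 change of -0.01. The part of this drift in the members' changes was not tested, but their values after quantile normalization can be set beside it. At the 1st they were 2.17 for MAL31, 1.38 for MAL13, 1.34 for MAL11, 0.92 for GAL1, 0.83 for both GAL7 and MAL33, and 0.59 for GAL80. All 7 kept their calls, as they did at the 12th. Setting the array medians equal lowered the median change of all genes by 0.109 at the 1st and by 0.111 at the 12th, and all 8 members called stayed called.

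**Figure D3:**
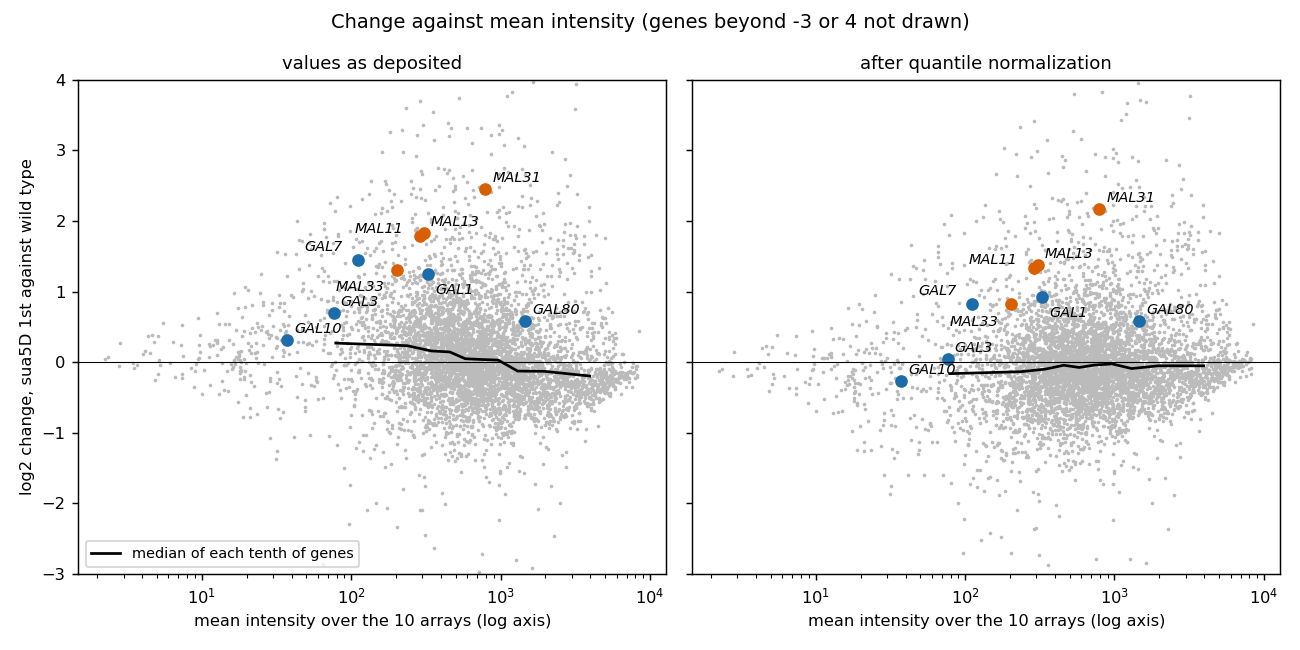
Log2 change at the 1st against wild type (vertical axis) by mean intensity over the 10 arrays (log axis) for all tested genes in grey, MAL members in orange and GAL members in blue, with values as deposited (left) and after quantile normalization (right). The black line, the median of each of the 10 bins, runs from 0.27 to -0.20 on the left. MAL31 stands well above it in both panels, while GAL3 comes close to 0 on the right.

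Between the 2 times of sampling no member was called (background 6.83% of all genes higher and 9.07% lower). Replicates 3 and 4 of the 1st had the LYS2 and MET17 transcripts, and no 12th culture had them at a similar level. For that pair time and these markers differ together and cannot be told apart. The 4 MAL genes were all slightly above their level at the 1st, by 0.04 to 0.19 on the log2 scale, and the 5 GAL genes all slightly below it, by -0.26 to -0.13. At an unadjusted p under 0.05, GAL80 (log2 change -0.14, interval -0.25 to -0.03, adjusted p = 0.0901) and GAL3 (-0.21, interval -0.39 to -0.02, adjusted p = 0.123) were lower by limma. The 12th arrays of GAL1, GAL3 and GAL80 lay wholly below those of the 1st, and those of MAL11 wholly above. Arrays separated in that way for 15.5% of all genes downward and 13.4% upward. The intervals of the MAL genes allow a difference of up to 0.44 in MAL11 and 0.26 in MAL31, so that equal levels at the 2 times are not shown.

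The MAL members lie near chromosome ends and the GAL members do not. By the gene table of the R64 assembly, MAL31 and MAL33 have 4 and 5 genes between them and the right end of chromosome II, and MAL11 and MAL13 have 4 and 5 to the right end of chromosome VII. GAL7, GAL10 and GAL1 sit side by side on chromosome II with 294 or more genes to that end. GAL3 is on chromosome IV, GAL80 on XIII and GAL4 on XVI.

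The nearest measured genes did not all follow the members. Left of MAL33 the nearest measured genes were PHO89 and PCA1. The metal transporter gene PCA1 rose 1.61-fold at the 1st (adjusted p = 5.29e-06), whereas PHO89, a sodium-phosphate cotransporter gene of the phosphate regulon, fell 2.6-fold (adjusted p = 9.18e-06). On the other side, YBR298C-A had a log2 change of -0.13 (adjusted p = 0.337), which after quantile normalization was -0.45 and was called (adjusted p = 0.00795), and the maltase gene MAL32 rose 1.83-fold (adjusted p = 2.74e-06). At the other locus the isomaltase gene IMA1 rose 2.08-fold beside MAL13 (adjusted p = 2.81e-07). The next gene, BIO2 of biotin synthesis, fell 2.48-fold (adjusted p = 9.26e-11). COS6, between MAL11 and the chromosome end, had a log2 change of -0.02 (adjusted p = 0.844). Around the GAL cluster, KAP104 and MNN2 fell (1.39-fold and 1.23-fold), and FUR4 and POA1 rose (1.22-fold and 1.2-fold). The calls of FUR4 and POA1 at the 1st were lost after quantile normalization (adjusted p = 0.418 and 0.253).

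**Figure D4:**
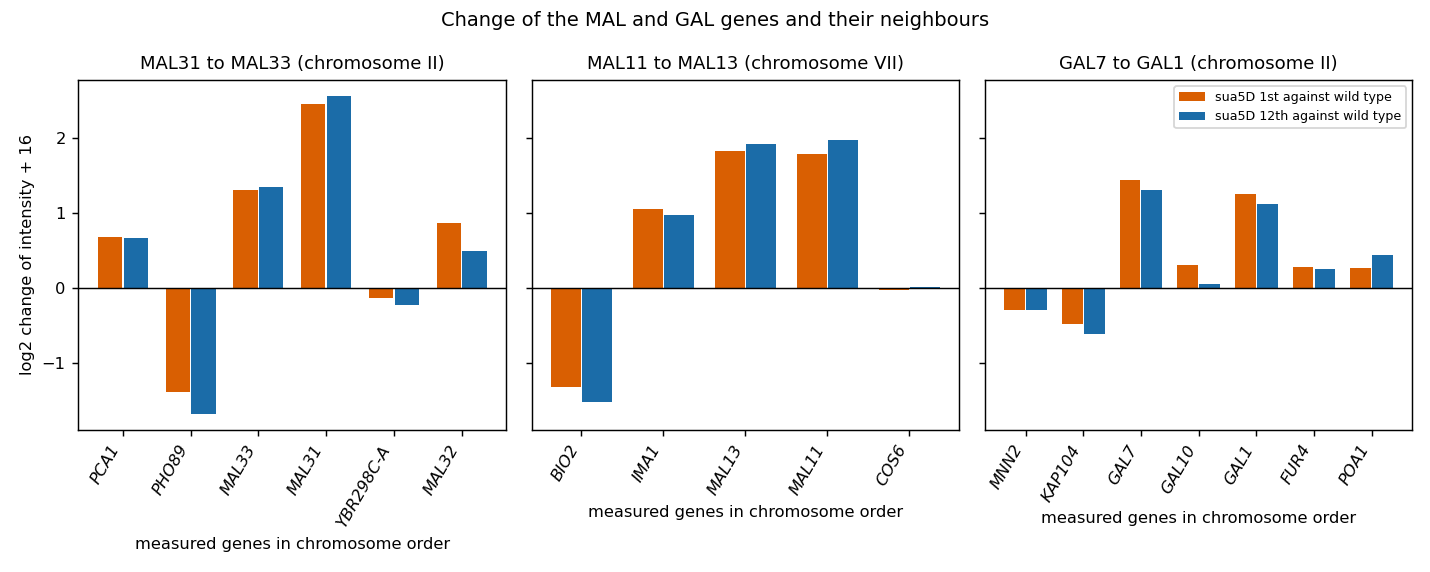
Log2 change of intensity + 16 against wild type (bars from 0, orange for the 1st and blue for the 12th) of the measured genes at the MAL31, MAL11 and GAL1 loci, in chromosome order. The measured genes of maltose or galactose use other than GAL10 rise while PHO89, BIO2, KAP104 and MNN2 beside them fall.

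Of 13 other sugar use genes, 9 were measured, 6 rose and 3 fell at the 1st, and the counts were the same at the 12th (background at the 1st 41.5% higher and 37.5% lower, at the 12th 40.9% and 36.9%). The median log2 change was 0.87 at the 1st and 0.63 at the 12th. SUC2, secreted invertase and a classical glucose-repressed gene, rose from 833 ± 22.4 (SD, n = 3) to 1878 ± 399 (n = 4), 2.2-fold (adjusted p = 7.00e-07). PGM2, the main phosphoglucomutase, rose 2.24-fold (adjusted p = 2.56e-07), whereas its minor isoenzyme gene PGM1 fell from 1489.8 ± 62.5 (SD, n = 3) to 471 ± 35.2 (n = 4), 3.1-fold (adjusted p = 1.46e-11). Both enzymes convert glucose phosphates, and their transcripts moved in opposite directions. The isomaltase gene IMA3 rose 1.88-fold at the 1st (adjusted p = 2.50e-07). Its log2 change of 0.91 there was 0.34 after quantile normalization (adjusted p = 0.00304), and at the 12th its call was lost that way (adjusted p = 0.23). MAL32 also lost its call at the 1st after quantile normalization (adjusted p = 0.077), and IMA1 kept it with a smaller log2 change (0.56 instead of 1.06). The probe sets of MAL32, IMA3 and MPH2 are of a type that can match several near-identical genes, so their values are uncertain for each gene alone.

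The galactose permease gene GAL2 went against its pathway. It read 68.7, 101 and 68.8 in the wild type, 51.0, 61.6, 51.6 and 37.3 at the 1st, and 58.4, 56.9 and 46.3 at the 12th. All deletion arrays were below all wild-type arrays. It fell 1.44-fold at the 1st (adjusted p = 0.00432) and 1.36-fold at the 12th (adjusted p = 0.018), while GAL1 and GAL7 rose. Its log2 change after quantile normalization was -1.13 and -0.87. The call at the 12th was lost without replicate 2 of the wild type or replicate 3 of the 12th (adjusted p = 0.0992 and 0.0761).

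The genes of glucose repression moved in both directions. All 20 listed genes were measured, 11 rose and 6 fell at the 1st, and 10 rose and 6 fell at the 12th, with a median log2 change of 0.28 and 0.19. Of all genes, 41.5% were called higher and 37.5% lower at the 1st, and 40.9% and 36.9% at the 12th. The 3 MIG repressor genes rose together. MIG1, the main repressor of GAL and MAL genes, read 345, 294 and 370 in the wild type and 762 to 1092 on the deletion arrays, 2.7-fold higher at the 1st (adjusted p = 2.26e-08). MIG2 rose 3.47-fold (adjusted p = 1.72e-10) and MIG3 2.06-fold (adjusted p = 1.43e-08).

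Other members of that list rose too. SIP2, a beta subunit of the Snf1 kinase, rose 2.84-fold (adjusted p = 2.63e-08), and hexokinase HXK1, a glucose-repressed isoenzyme, 2.03-fold (adjusted p = 1.26e-09). ZNF1, a regulator of growth on other carbon sources, read 22.3, 15.9 and 24.0 in the wild type and 79.0 to 110 on the deletion arrays (2.93-fold higher at the 1st, adjusted p = 8.87e-09). Its wild-type replicate 2 was under that array's background limit of 17.5, so the fold is imprecise. SNF1 itself, SIP1 and SAK1 were not called at the 1st. The genes that fell were SNF4, GAL83, ELM1, HXK2 and the co-repressor genes TUP1 and CYC8, although HXK2 had a log2 change of 0.03 at the 1st and 0.06 at the 12th after quantile normalization, against -0.12 and -0.13 as deposited. The other 5 had changes below 0 under that normalization too.

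Of 5 other genes whose promoters are known to bind Gal4, 4 rose and GAL2 fell at both times, against 41.5% of all genes higher and 37.5% lower at the 1st and 40.9% and 36.9% at the 12th. The rise of 1 of the 4, FUR4, was not called under other scalings. MTH1, a regulator of glucose transporters, rose from 575 ± 141 (SD, n = 3) to 2511 ± 371 (n = 4), 4.32-fold (adjusted p = 3.90e-09). GCY1, a glycerol dehydrogenase gene, rose from 345 ± 3.89 (SD, n = 3) to 1415 ± 132 (n = 4), 3.95-fold (adjusted p = 1.76e-11). PCL10, a cyclin of glycogen control, rose 1.25-fold (adjusted p = 5.54e-05). Its log2 change of 0.33 was 0.21 with equal array medians and 0.13 after quantile normalization (adjusted p = 0.031). The uracil permease gene FUR4 rose 1.22-fold (adjusted p = 0.00367). The call of FUR4 was lost with equal array medians and after quantile normalization at both times (adjusted p = 0.0595, 0.418, 0.141 and 0.621) and at the 12th without replicate 3 of the wild type (adjusted p = 0.0624).

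**Figure D5:**
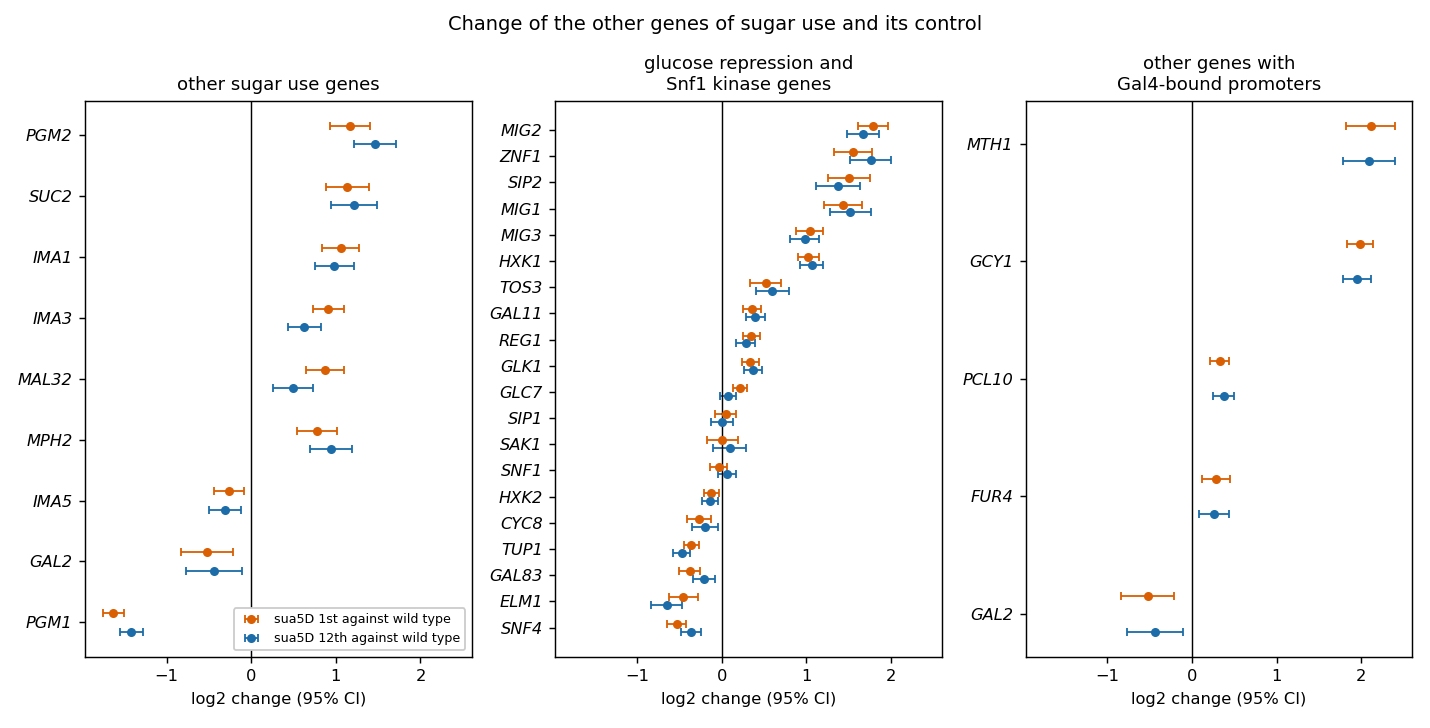
Log2 change of intensity + 16 against wild type (horizontal axes, with 95% confidence intervals) of the other sugar use genes, the glucose repression and Snf1 kinase genes and other genes with Gal4-bound promoters, sorted by the change at the 1st. PGM1 and GAL2 lie below 0 while MTH1, GCY1 and the MIG genes lie near or above 1.

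Likeness to a member was measured as the root mean square difference, over the 7 deletion arrays, of the log2 values after subtracting the mean of the wild type. The gene closest to MAL11 was MAL13, its neighbour, at 0.0961, followed by CMK2 at 0.0974 and YRO2 at 0.11. MAL31 was closest to YPS6 (0.0603), RGI1 (0.0787) and YJR115W (0.112), and its closest member was MAL11 at rank 109. GAL1 was closest to FRE6 (0.0316), WSC3 (0.0399) and BUD31 (0.063), with MAL33 at rank 149 and GAL7 at rank 201. GAL3 was closest to PHA2 (0.0728), ATG22 (0.0732) and YLL066W-B (0.0744), with GAL80 at rank 118. Except for MAL13 beside MAL11, no other member was thus among the 3 closest genes of these 4.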

How the data were processed

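The authors deposited intensity values on a linear scale, 1 for each probe set on an array. The summary software, not given in the sources used here, is unknown. Each array was scaled to 1 mean (500.2 without the outer 2% at each end), as the values show. Of 10928 probe sets, 5498 were matched by gene identifier to the RefSeq gene table (assembly R64), giving 5449 genes, the brightest probe set for each of 47 with several. Intensities were floored at 0, 16 was added and log2 taken. limma 3.58.1 in R 4.3.3 was fitted with 1 mean per group over all 10 arrays, an intensity trend in eBayes, two-sided p-values and Benjamini-Hochberg adjustment over all genes (threshold 0.05). It was tested on simulated data.

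Groups came from titles. The background limit of an array is percentile 95 of its 1746 probe sets of S. pombe. Named genes are the members, SUA5, mating markers, locus neighbours, the 3 genes most like each of 4 members, and at most 6 per list, of those called, with the smallest adjusted p in a comparison. Members and lists were chosen with earlier results of these data known. Alternatives were the added constant, scaling, a filter, probe sets, trend, arrays fitted, clone pairs, a replicate block and leaving out each array. Arrays' number limits precision, and p-values measure only the spread between these cultures. No promoter or protein sequence was used here, so the planned motif search was not run.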

Additional observations from a re-analysis of the deposited data

Results flagged for a closer look

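Of the lists of other sugar use, glucose repression and Gal4-bound genes, 5 genes differed between the 12th and the 1st by limma's test of that difference. The lists held 9, 20 and 5 measured genes, with GAL2 in both the first and the last. Of all genes, 6.83% were called higher and 9.07% lower in this comparison, 15.9% in either direction. MAL32 (log2 change -0.374, adjusted p = 0.028) and IMA3 (-0.283, adjusted p = 0.0396) were lower at the 12th, as was the phosphatase gene GLC7 (-0.14, adjusted p = 0.0297). PGM1 (0.211, adjusted p = 0.029) and SNF4 (0.17, adjusted p = 0.0387) were higher. MAL32 read 88.2, 94.99, 85.4 and 100.2 at the 1st and 59.8, 68.7 and 74.2 at the 12th. Each of the 5 calls was lost without any 1 of the 12th arrays, with adjusted p from 0.0514 to 0.153. Calls were also lost without replicate 2 or 4 of the 1st for MAL32, 3 or 4 for PGM1, 1, 2 or 4 for IMA3, 2 or 3 for GLC7 and 1, 2 or 3 for SNF4, with adjusted p from 0.0551 to 0.0951. With the clone pairs of the 1st averaged all 5 were lost (adjusted p = 0.0912 for MAL32, 0.065 for PGM1, 0.117 for IMA3, 0.0895 for GLC7 and 0.102 for SNF4). Replicates 1 and 2 of the 1st, like the 12th, lacked high LYS2 and MET17 readings. With these replicates alone for the 1st, MAL32, PGM1, GLC7 and SNF4 were lost (adjusted p = 0.073, 0.146, 0.0652 and 0.0569). IMA3 kept its call there. After quantile normalization MAL32 and IMA3 were lost (adjusted p = 0.191 and 0.118). Outside those lists, the alpha-specific STE3 (-0.33, adjusted p = 0.0361) and the neighbours BIO2 (-0.21, adjusted p = 0.0279) and KAP104 (-0.13, adjusted p = 0.0403) were lower at the 12th and POA1 (0.18, adjusted p = 0.0443) was higher. By Dixon's test none of 37 genes had an array far from the others at the 1st. The test seeks 1 lone array and cannot detect a split of 2 arrays against 2, so it does not show that these cultures are alike.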

How the results depend on the processing

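Over 22 alternatives and 9 members, 195 of 198 results at the 1st and 193 of 198 at the 12th against wild type kept their direction and side of the threshold. These are not 22 separate checks. Each member had 1 probe set, so averaging probe sets could not move its change. The replicate block left the changes at the 12th against wild type as they were. The number of members called higher changed by 1 at most, and none was called lower. Quantile normalization gave GAL10 -0.263 and -0.312, GAL3 -0.0177 at the 12th and POA1 -0.0706 at the 1st. Equal array medians gave GAL10 -0.0261 and COS6 -0.107 at the 12th. Replicates 3 and 4 alone gave COS6 0.093 at the 1st and, for the 12th against the 1st, MAL33 -0.0871. Leaving out 1 array moved COS6 between -0.0743 and 0.0416 at the 1st and between -0.0592 and 0.108 at the 12th, GAL10 between -0.0107 and 0.175 at the 12th, and MAL33 between -0.0192 and 0.141 for the 12th against the 1st. Adding 64 in place of 16 kept the calls at the 1st of GAL3 (0.44), MAL32 (0.54), ZNF1 (0.88) and GAL2 (-0.33) with smaller changes. A larger added constant understates changes of dim genes more. The cause of the other shifts was not tested.

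For the 12th against the 1st, 372 genes were higher and 494 lower. With the clone pairs of the 1st averaged they were 103 and 235, and with replicates 3 and 4 alone 242 were higher. Leaving out 1 array gave 79 to 390 higher and 188 to 531 lower, fewest without replicate 3 of the 12th (79 and 188). Without replicate 2 of the 12th they were 114 and 261, and without replicate 1 of the 12th or replicate 2 of the 1st 211 and 215 were higher. Same-numbered replicates did not deviate together (correlations of deviations -0.27 to 0.08). With the replicate block 8 members were higher at both times, 252 genes were higher and 380 lower between the times, and MAL32, PGM1, IMA3 and SNF4 lost their calls there (adjusted p = 0.0934, 0.0804, 0.0936 and 0.0599). The share of called genes that were higher at the 1st, 52.5%, was 44.2% with equal medians and 42.9% after quantile normalization (52.6%, 44.1% and 43.8% at the 12th).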

Other observations

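Several listed genes divided the clones of the 1st in the way of LYS2 and MET17. In replicates 1 and 2 SUC2 had an intensity of 2125 and 2308, above the 1509 and 1570.4 of replicates 3 and 4. PGM2 was at 2245 and 2113 in the first pair against 1578 and 1717 in the other. MIG1 (1092 and 1032 against 762 and 880.2) and MTH1 (2930 and 2709 against 2264 and 2141) were likewise higher in the first pair. Among the members, MAL31 (1111 and 1058 against 927 and 983) and GAL7 (156 and 159 against 121 and 152) were higher in the first pair and MAL33 and GAL1 in the other, while MAL11, MAL13, GAL3, GAL10 and GAL80 overlapped between the pairs. These differences were not tested, and how many of all genes divide the clones in this way was not counted. Over the measured genes together, replicates 1 and 2 shared their departures from the average of the 1st (correlation 0.40). Replicates 3 and 4 did so too (0.49), against -0.76 to -0.69 across the pairs. These correlations include LYS2 and MET17 themselves, and departures from the average of the same arrays cancel out by construction. They therefore cannot show whether genes beyond those named here divide the clones.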
